A study of Mus musculus with 16 samples.

Results

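The comparison of HIRA KO with control in resting liver was described across 20059 genes, each with 10 or more counts summed over the 8 libraries taken before regeneration, of 55421 gene IDs measured. Bulk polyA RNA-seq was available for 16 libraries from male C57BL/6 mice, of which 4 HIRA KO and 4 control libraries were taken before regeneration and the others after it. Virus of serotype AAV8 was given by retro-orbital injection at an age of 6 months, and the lobes resected at partial hepatectomy 4 weeks later were the samples before regeneration. All of these mice therefore carried virus with a cargo under the Tbg promoter, which is active in hepatocytes, so that other cells of the liver kept Hira. Of the 4 HIRA KO samples, 2 came from HIRAfl/fl mice given AAV8-Tbg-Cre and 2 from wildtype mice given AAV8-Tbg-saCas9 with a guide against Hira. Of the 4 control samples, 2 came from wildtype mice given AAV8-Tbg-Cre and 2 from wildtype mice given AAV8-Tbg-saCas9 with a guide against Rosa26. The libraries are numbered within each group as the count table numbers them, and the table does not say which libraries came from which deletion approach.

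HIRA is the central subunit of a histone chaperone that deposits H3.3 independently of DNA synthesis, together with UBN1 or UBN2, CABIN1 and ASF1A. H3.3 is made from a pair of genes, H3f3a and H3f3b. Hepatocytes divide rarely, so that new nucleosomes in them are largely assembled by this route, at promoters, enhancers and gene bodies of active genes. The comparison asked what changed in liver RNA within weeks of the deletion, and whether the change followed the expression level of a gene.

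Total counts ran from 15103059 to 20356781 over the 8 libraries, and levels are given as CPM, counts scaled to the library total with TMM factors. The hepatocyte markers Alb, Apoa1 and Cps1 were present in every library, with lowest values of 78906, 2373 and 2552 CPM. The columns are not tied to single mice, so p-values measure only the spread between these libraries. HIRA KO libraries 1 and 2 stood apart from the other 6. On the leading principal component of 12960 genes, which carried 52.1% of the variance, they lay at -59.4 and -41.0, and HIRA KO libraries 3 and 4 lay at 14.5 and 13.5, within the range of the 4 controls (10.8 to 27.4). Across these genes HIRA KO libraries 3 and 4 correlated with control library 4 at 0.987 and 0.988, and HIRA KO library 1 with the same control at 0.934. The main results are therefore given with the values of every library, and counts are repeated without HIRA KO libraries 1 and 2, an alternative chosen after seeing the data.

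Hira itself measured 5.64, 6.09, 6.17 and 5.07 CPM in control libraries 1 to 4 and 3.35, 3.12, 3.26 and 4.39 CPM in HIRA KO libraries 1 to 4. All 4 HIRA KO libraries lay below all 4 controls, and their mean was 61.5% of the control mean. The fitted log2 fold change was -0.70 ± 0.17 (SE, n = 4 per group), which did not pass across all genes (adjusted p = 0.114, quasi-likelihood test of edgeR, adjusted after Benjamini-Hochberg). An exact two-sided permutation test of the CPM gave p = 0.0286, the smallest that 4 against 4 libraries allow, and adjusted p = 0.143 over the 5 values tested in this way. Because Hira was kept in cells other than hepatocytes, and because the counts cover the whole gene, the remaining reads cannot be assigned to undeleted hepatocytes or to other cells.

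No partner of HIRA passed the test. Ubn1 had a log2 fold change of 0.01 ± 0.10, Cabin1 of -0.11 ± 0.17 and Asf1a of 0.09 ± 0.16. H3f3a, which encodes H3.3, measured 63.1, 53.6, 54.7 and 59.6 CPM in the controls and 102, 106, 78.4 and 89.2 CPM in HIRA KO. The groups did not overlap, the log2 fold change was 0.70 ± 0.14, and the adjusted p of 0.0746 missed the threshold in edgeR and passed in DESeq2 on the 8 libraries (adjusted p = 2.35e-05). H3f3b, which encodes the same protein, ran from 173 to 199 CPM in the controls and from 167 to 275 CPM in HIRA KO, with overlapping groups. Of 11 H3 chaperone genes, 0 passed the test and 1 was lower at an unadjusted p under 0.05 (6.43% of all genes). This was Rbbp4, a histone-binding subunit of several chromatin complexes, with a log2 fold change of -0.33 ± 0.12.

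At an adjusted p under 0.05, 9 of 20059 genes were called (0.0449%), 8 higher and 1 lower in HIRA KO, each by more than 1 on the log2 scale. An unadjusted p under 0.05 was reached by 1586 higher genes (7.91%) and 1290 lower genes (6.43%). The 4 HIRA KO libraries lay above all controls for 822 genes (4.10%) and below all controls for 963 genes (4.80%). DESeq2 on the 8 libraries called far more genes, 325 higher (1.62%) and 278 lower (1.39%), and all 9 genes called by edgeR were among them. Without HIRA KO libraries 1 and 2, edgeR called 0, and 987 of 20059 genes had an unadjusted p under 0.05, 407 higher and 580 lower. That fit has fewer samples, and the lowest adjusted p in it was 0.0759. List counts given without these libraries are to be read against its 407 higher and 580 lower genes, and not against the shares of the full fit.

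**Figure D1:**
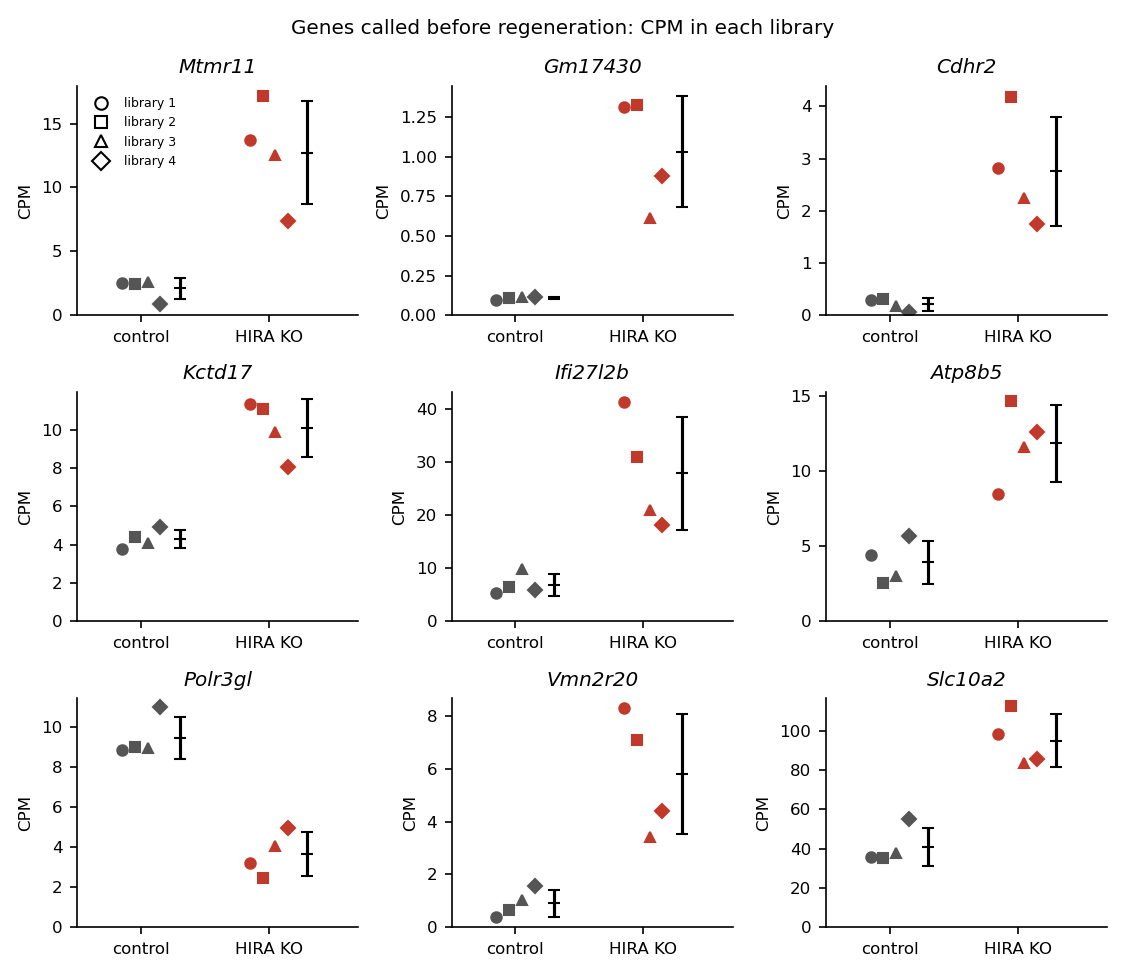
CPM of the 9 called genes in each library before regeneration, with controls in grey, HIRA KO in red, 1 marker shape per library number and black bars for the mean ± SD of 4 libraries. All 4 HIRA KO libraries lie on 1 side of all 4 controls in every panel, above them for 8 genes and below them for Polr3gl.

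Mtmr11, which encodes a myotubularin-related protein (chromosome 3, 96162004 to 96171718, mm10), had the smallest adjusted p. It measured 2.50, 2.48, 2.63 and 0.864 CPM in the controls and 13.7, 17.1, 12.6 and 7.40 CPM in HIRA KO, a log2 fold change of 2.58 ± 0.29 (adjusted p = 0.00289, edgeR). It was the only gene whose call held whichever of the 8 libraries was left out, and the only gene called at all without control library 1, control library 3 or HIRA KO library 2. Those fits still drew on the libraries after regeneration for the spread. With edgeR on the 8 libraries alone, Mtmr11 was not called (adjusted p = 0.0702, edgeR). In HIRA KO libraries 3 and 4 alone against the controls, its log2 fold change was 2.23.

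Polr3gl, which encodes a subunit of RNA polymerase III, was the only lower gene among the 9 called. It measured 8.84, 9.00, 8.96 and 11.0 CPM in the controls and 3.19, 2.46, 4.08 and 4.96 CPM in HIRA KO (log2 fold change -1.36 ± 0.22, adjusted p = 0.0315, edgeR). The HIRA KO libraries lay clearly below the controls, at 38.8% of the control mean. Polr3gl starts 406 kb from the end of Mtmr11 on chromosome 3. Of 9 genes with a mean of at least 1 CPM from Mtmr11 to Polr3gl inclusive, these were the only called ones. Among the genes between them, Sf3b4, Bola1 and Txnip had log2 fold changes of 0.18 ± 0.10, -0.21 ± 0.17 and -0.14 ± 0.31, none of which passed the test, and Hjv, the hemojuvelin gene, was lower at an unadjusted p of 0.0385 (edgeR).

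Cdhr2 encodes a protocadherin that links the tips of neighbouring microvilli. It was at 6, 6, 3 and 1 counts in the controls and at 54, 63, 33 and 28 counts in HIRA KO, or 0.213 ± 0.123 against 2.75 ± 1.05 CPM (mean ± SD, n = 4), with a log2 fold change of 3.63 ± 0.52 (adjusted p = 0.0190, edgeR). The gene was thus close to the detection limit in the controls and present in all 4 HIRA KO libraries. Pls1, which encodes the actin bundler plastin 1 of the same structures, measured 1.55, 0.862, 1.03 and 0.519 CPM in the controls and 9.27, 9.22, 5.23 and 9.79 CPM in HIRA KO (log2 fold change 3.06 ± 0.57, adjusted p = 0.0746, edgeR). The groups were again separate, and HIRA KO libraries 3 and 4 alone gave a log2 fold change of 2.91. Vil1, the villin gene, measured 10.0 and 8.76 CPM in HIRA KO libraries 1 and 2 but 0.748 and 1.07 CPM in libraries 3 and 4, against 0.115 to 0.485 CPM in the controls. Of 12 microvillus and brush border genes, 1 was called (0.0449% of all genes), 7 were higher (7.91% of all genes) and 0 lower at an unadjusted p under 0.05, and the median log2 fold change was 1.13, against 0.01 over all genes tested. That median was 0.12 without HIRA KO libraries 1 and 2, and 2 of the 12 genes were then higher at that p, as were 407 of all 20059 genes.

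Slc10a2, the sodium-dependent bile acid transporter known from ileum and bile duct, measured 35.6, 35.1, 38.0 and 55.1 CPM in the controls and 98.1, 113, 83.7 and 85.5 CPM in HIRA KO (log2 fold change 1.21 ± 0.21, adjusted p = 0.0439, edgeR). It was the called gene closest to the threshold, and its call held in 3 of the 8 leave-one-out fits. Kctd17, an adaptor of cullin 3 ubiquitin ligases, rose from 3.80, 4.42, 4.11 and 4.90 CPM in the controls to 11.3, 11.1, 9.85 and 8.03 CPM (log2 fold change 1.23 ± 0.19, adjusted p = 0.0276, edgeR). Atp8b5, a phospholipid flippase gene, rose from 3.93 ± 1.41 to 11.8 ± 2.57 CPM (log2 fold change 1.59 ± 0.25, adjusted p = 0.0315, edgeR), and was lowest in HIRA KO library 1, at 8.48 CPM.

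Ifi27l2b, named as an interferon-inducible gene, measured 5.39, 6.41, 9.93 and 5.94 CPM in the controls and 41.4, 31.1, 21.0 and 18.1 CPM in HIRA KO (log2 fold change 2.01 ± 0.30, adjusted p = 0.0315, edgeR). Vmn2r20, a member of the vomeronasal receptor family, rose from 0.400, 0.647, 1.03 and 1.56 CPM in the controls to 8.27, 7.10, 3.40 and 4.39 CPM (log2 fold change 2.68 ± 0.44, adjusted p = 0.0315, edgeR). The processed pseudogene Gm17430 was at 2 counts in every control and at 25, 20, 9 and 14 counts in HIRA KO (adjusted p = 0.0190, edgeR). Both of these belong to families with near-identical copies, so the genes that their reads came from are uncertain.

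Just outside the threshold stood further genes whose groups did not overlap. Among those higher in HIRA KO were Nudt18, a nudix hydrolase gene, at 12.2 ± 0.649 against 26.5 ± 6.99 CPM (adjusted p = 0.0507, edgeR), and Npb, which encodes neuropeptide B, at 9, 6, 3 and 2 counts against 98, 73, 18 and 20 counts (adjusted p = 0.0507, edgeR). Nat8f6, an acetyltransferase family gene, had a log2 fold change of 2.15 ± 0.39, Thnsl2, a threonine synthase-like gene, one of 0.88 ± 0.16, and Col4a5, a basement membrane collagen gene, one of 1.97 ± 0.38. For these 5 genes the values of HIRA KO libraries 1 and 2 lay above those of libraries 3 and 4. Among the lower genes were Utp14a, a gene of ribosomal RNA processing, at 15.7 ± 2.12 against 10.2 ± 0.673 CPM (adjusted p = 0.0507, edgeR), Tomm7, of the mitochondrial protein import channel, at 36.9 ± 3.11 against 22.4 ± 4.14 CPM, and Acat3, an acetyl-CoA acetyltransferase gene, at 133 ± 9.30 against 75.4 ± 15.4 CPM. Lyrm2, Aagab and Ltbr, the lymphotoxin beta receptor gene, had log2 fold changes of -0.68 ± 0.14, -0.43 ± 0.09 and -0.53 ± 0.11 (adjusted p = 0.0914 for each, edgeR).

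Besides Nlrc5, described with the MHC class I genes, the other lower genes of smallest p were mitochondrial. They were mt-Co3, mt-Atp6, mt-Nd3 and mt-Co2, subunits of complex IV, ATP synthase and complex I. mt-Co3 measured 124, 48.7, 116 and 151 CPM in the controls and 36.5, 28.3, 44.0 and 41.3 CPM in HIRA KO (log2 fold change -1.55 ± 0.28, adjusted p = 0.0567, edgeR). Control library 2 lay near the HIRA KO libraries and the other 3 controls far above them. The adjacent genes mt-Atp8 and mt-Nd4l, looked up after these values were seen, had the same pattern, so that all 6 protein-coding genes from mt-Co2 to mt-Nd4l (mitochondrial positions 7013 to 10173) were lower at an unadjusted p under 0.05, with log2 fold changes from -1.61 to -1.50. Their summed level was 416, 150, 396 and 504 CPM in the controls and 120, 103, 138 and 140 CPM in HIRA KO.

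Of the other 7 mitochondrial protein-coding genes, none had an unadjusted p under 0.05, their log2 fold changes ran from -0.25 to 0.19, and their sum ran from 58263 to 68280 CPM in the controls and from 55616 to 71606 CPM in HIRA KO. The 6 lower genes had between 16.9 and 124 CPM per kb, against 2431 to 17215 CPM per kb for the other 7, although all lie on 1 circular genome. A nuclear copy of a stretch of the mitochondrial genome is known on chromosome 1, where 7 pseudogenes (24611535 to 24616197, mm10) were among the genes tested, so that reads of the 6 genes can be shared with it and their values are uncertain. The 7 pseudogenes summed to 237 to 355 CPM in the controls and 232 to 311 CPM in HIRA KO, and 1 of them, Gm29216, was lower at an unadjusted p of 0.0379 (edgeR).

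**Figure D2:**
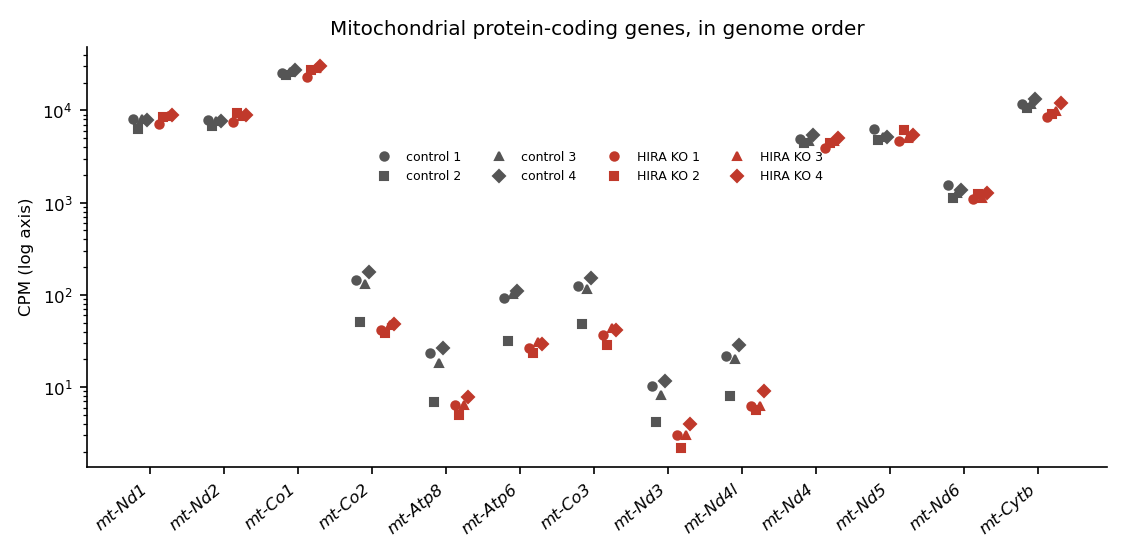
CPM on a log axis of the 13 mitochondrial protein-coding genes in genome order, with controls in grey, HIRA KO in red and 1 marker shape per library number. The 6 genes from mt-Co2 to mt-Nd4l lie far below the other 7, and within them 3 controls lie above HIRA KO and control library 2 lies close to it.

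The genes of antigen presentation on MHC class I were lower in HIRA KO throughout the list, at differing sizes. MHC class I molecules, made of a heavy chain such as H2-K1 or H2-D1 and of beta-2 microglobulin (B2m), present peptides that the immunoproteasome (Psmb8, Psmb9) cuts and that Tap1 and Tap2 carry into the endoplasmic reticulum. Nlrc5 is the transactivator of these genes. All 20 members had a log2 fold change below 0, 15 were lower at an unadjusted p under 0.05 against 6.43% of all genes, 14 did not overlap between groups against 4.80% of all genes, and the median was -0.51. None was called by edgeR, and DESeq2 on the 8 libraries called 12, all lower. The median was -0.39 without HIRA KO libraries 1 and 2, with 8 lower and 0 higher at an unadjusted p under 0.05 (580 and 407 of all 20059 genes).

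Nlrc5 had the smallest p of the list, with 47.3, 38.6, 32.9 and 27.5 CPM in the controls and 19.3, 22.4, 23.1 and 23.5 CPM in HIRA KO (log2 fold change -0.73 ± 0.15, adjusted p = 0.0746, edgeR). The HIRA KO libraries lay close together, below every control. Psmb8 measured 37.6, 42.7, 37.7 and 24.4 CPM in the controls and 20.3, 19.1, 19.4 and 21.1 CPM in HIRA KO, again a narrow band below a wider one. B2m, the most abundant member per kb, measured 2010, 2035, 2299 and 2260 CPM in the controls and 1136, 1247, 1800 and 1790 CPM in HIRA KO (log2 fold change -0.53 ± 0.20, unadjusted p = 0.0172, edgeR). For B2m the difference was larger in HIRA KO libraries 1 and 2 than in 3 and 4, and H2-K1 (log2 fold change -0.55 ± 0.18) had the same order. The H2-Q genes, of which H2-Q6, H2-Q4 and H2-Q7 followed Nlrc5 in order of p, are near-identical to each other, so the split of reads between them is uncertain. Calr and Pdia3, general chaperones of the endoplasmic reticulum, had the smallest differences in the list, both within 0.07 of 0 on the log2 scale. The MHC class II list, expressed by professional antigen-presenting cells, had 0 of 8 genes at an unadjusted p under 0.05 and a median of 0.17. With HIRA KO libraries 1 and 2 left out, 3 of the 8 were lower and the median was -0.84. The summed class II level was 388 CPM in both of these libraries, 140 and 138 CPM in HIRA KO libraries 3 and 4, and 284, 275, 251 and 132 CPM in the controls.

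Interferon response genes had the same sign, with 1 exception. Of 37 tested, 36 had a log2 fold change below 0, 15 were lower at an unadjusted p under 0.05 (6.43% of all genes), 13 did not overlap between groups (4.80% of all genes) and the median was -0.65. The list score (mean log2(CPM + 1)) was 4.48, 4.57, 4.21 and 3.84 in the controls and 3.59, 3.87, 3.66 and 3.84 in HIRA KO, so that control library 4 lay within the HIRA KO range. The exception was the called gene Ifi27l2b. Irf9, a subunit of the ISGF3 factor that acts downstream of type I interferon, measured 58.3, 63.0, 47.8 and 49.6 CPM in the controls and 29.4, 32.3, 38.3 and 39.1 CPM in HIRA KO (log2 fold change -0.65 ± 0.18, adjusted p = 0.158, edgeR). Irgm2, an interferon-inducible GTPase gene, measured 120, 97.8, 65.7 and 60.7 CPM in the controls and 31.7, 55.0, 39.9 and 47.6 CPM in HIRA KO. Control libraries 1 and 2 lay above 3 and 4 for Irgm2, as they did for Usp18 and Isg15. Isg15, a ubiquitin-like modifier, measured 26.0, 28.9, 13.4 and 14.6 CPM in the controls and 3.88, 6.70, 6.73 and 10.4 CPM in HIRA KO (log2 fold change -1.59 ± 0.60, adjusted p = 0.271, edgeR). No lower member passed edgeR's adjusted p, and DESeq2 on the 8 libraries called 16 of the 37 lower. The median was -0.64 without HIRA KO libraries 1 and 2, with 6 genes lower at an unadjusted p under 0.05 (580 of all 20059 genes).

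Kupffer cells and other immune cells also carry MHC class I and interferon response genes. The summed Kupffer marker level was 578, 600, 718 and 344 CPM in the controls and between 477 and 528 CPM in HIRA KO, so the HIRA KO libraries lay below control libraries 1, 2 and 3 and above control library 4. Its part in the result was not tested. In bulk liver, fewer cells of a type and less RNA per cell cannot be told apart.

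**Figure D3:**
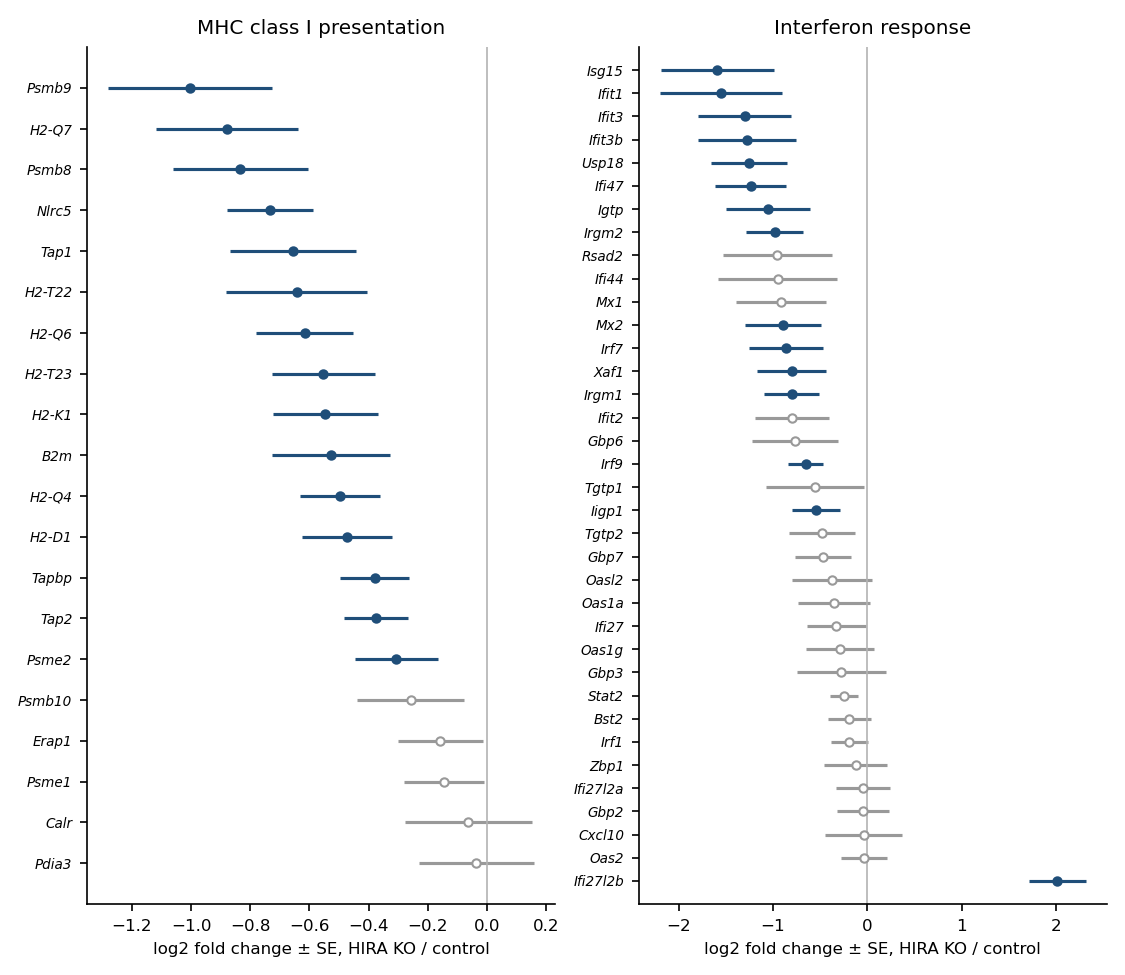
Log2 fold change of HIRA KO against control with its SE (edgeR, n = 4 per group) for 20 MHC class I and 36 of the 37 interferon response genes, with filled blue points for an unadjusted p under 0.05 and open grey points otherwise. Every gene drawn lies left of 0 except Ifi27l2b, which lies right of it.

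The ISGF3 factor binds an interferon-stimulated response element. The letters GAAANNGAAA, searched on both strands of the 250 bases before each gene's start, were found in 18 of 26 interferon response genes with a promoter in the RefSeq table and in 3 of 18 MHC class I genes (H2-T22, H2-T23 and B2m), against 3.46% of 27025 genes with a promoter and 3.36% of 12606 genes tested here. Of the 18 interferon response genes with the letters, 7 were lower at an unadjusted p under 0.05, and of the 8 without them, 4 were. The median log2 fold changes were -0.52 and -0.80. All 3 MHC class I genes with the letters were lower at that p (median -0.55), and so were 10 of the 15 without them (median -0.47). Of the 37 interferon response genes, those with no matched promoter are not in these counts. Promoters of 4 genes described here are shown as examples of where the letters lie, in capitals, with GRCm38.p6 coordinates and read 5′ to 3′ on the gene's strand. A capital stretch in the opposite orientation reads as its reverse complement, and in Isg15 the capitals cover 3 overlapping matches. They are B2m (chr2:122147437-122147686, plus strand), H2-T23 (chr17:36032702-36032951, minus strand), Irgm2 (chr11:58214727-58214976, plus strand) and Isg15 (chr4:156200819-156201068, minus strand).
B2m: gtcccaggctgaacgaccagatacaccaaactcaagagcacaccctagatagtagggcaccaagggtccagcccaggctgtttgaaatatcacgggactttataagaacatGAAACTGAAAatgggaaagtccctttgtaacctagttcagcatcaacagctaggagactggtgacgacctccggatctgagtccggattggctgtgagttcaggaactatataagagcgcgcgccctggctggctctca
H2-T23: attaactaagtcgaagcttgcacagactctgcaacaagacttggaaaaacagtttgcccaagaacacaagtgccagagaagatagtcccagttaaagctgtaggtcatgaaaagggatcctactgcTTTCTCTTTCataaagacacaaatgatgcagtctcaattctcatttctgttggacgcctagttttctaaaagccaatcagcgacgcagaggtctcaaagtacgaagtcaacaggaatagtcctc
Irgm2: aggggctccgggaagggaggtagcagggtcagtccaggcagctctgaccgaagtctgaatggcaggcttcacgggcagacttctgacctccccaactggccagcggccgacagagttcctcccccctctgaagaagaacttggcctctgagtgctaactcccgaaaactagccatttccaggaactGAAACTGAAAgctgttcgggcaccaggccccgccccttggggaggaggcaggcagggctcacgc
Isg15: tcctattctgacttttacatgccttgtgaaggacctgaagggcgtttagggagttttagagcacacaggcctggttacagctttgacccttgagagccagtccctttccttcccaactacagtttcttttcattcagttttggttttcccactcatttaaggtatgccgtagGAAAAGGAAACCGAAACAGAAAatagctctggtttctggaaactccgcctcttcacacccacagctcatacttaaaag

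The log2 fold change differed with expression level, and 2 of the 4 HIRA KO libraries carried most of this. Genes with a length in GENCODE vM21 (19663) were put in 10 bins by their mean CPM per kb over the 8 libraries. The median log2 fold change was 0.41 in the lowest bin and went down from bin to bin to -0.08 in the highest, and the share of genes with a log2 fold change above 0 went from 67.3% to 36.2%. At an unadjusted p under 0.05, 173 genes were higher and 32 lower in the lowest bin, and 85 were higher and 244 lower in the highest bin (over 18.1 CPM per kb). Genes of the lowest bins can have passed the count filter through 1 library where they were high. HIRA KO library 1 had the most genes with a count (23669, against 21546 to 23046 in the other libraries). The filter can thus have favoured higher genes in the lowest bins. The interquartile range of the log2 fold change narrowed from 1.25 in the lowest bin to 0.318 in the highest. None of the 9 called genes lay in the highest bin, and 0 lay in the lowest 2 bins.

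Library by library, the pattern was not shared. Set against the mean of the controls, the median difference in the lowest bin was 0.19, 0.07, -0.03 and -0.02 (log2, HIRA KO libraries 1 to 4), and in the highest bin it was -0.19, -0.18, 0.00 and 0.02. The tilt was thus seen in HIRA KO libraries 1 and 2, while libraries 3 and 4 were close to 0 in both bins. The controls tilted too, and control library 4 ran from -0.09 in the lowest bin to 0.13 in the highest, relative to the mean of the 8 libraries. The slope of a library's deviation on log2 level over 12696 genes was -0.0704, -0.0407, 0.0174 and 0.0181 in HIRA KO and 0.000347, 0.00398, 0.0218 and 0.0494 in the controls. The difference of the means was -0.0378, which did not pass an exact two-sided permutation test (p = 0.229, n = 4 per group). In the highest level bin of these genes, the median deviation was -0.155, -0.162, 0.0339 and 0.0543 in HIRA KO and 0.00529, 0.0139, 0.0738 and 0.135 in the controls (difference -0.114, p = 0.229, exact permutation test). Without HIRA KO libraries 1 and 2 the difference of the slopes was -0.00110 and that of the highest bin -0.00515.

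**Figure D4:**
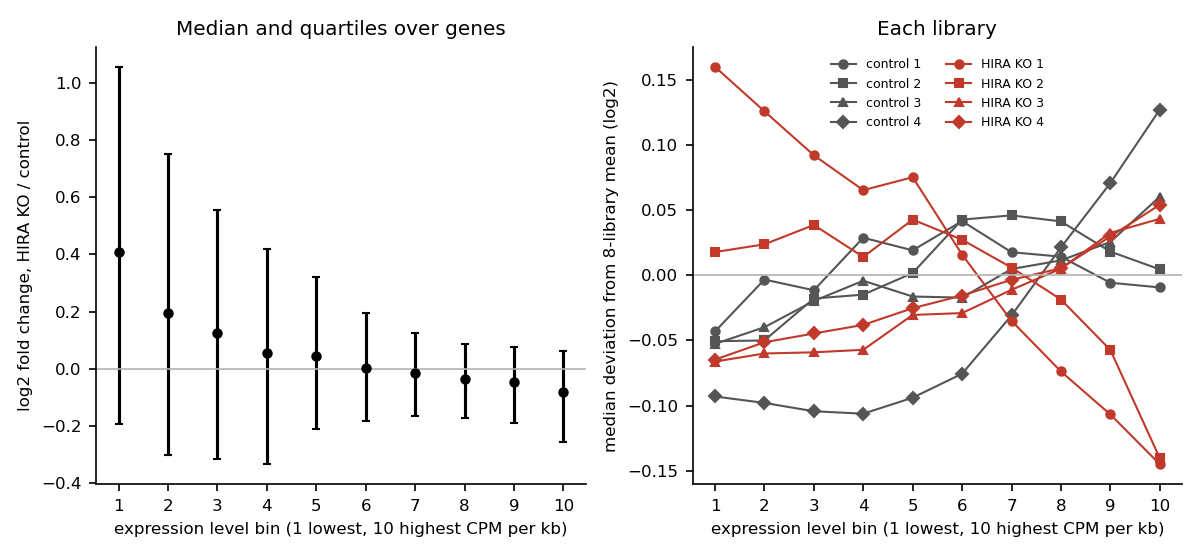
Change by expression level in 10 bins of mean CPM per kb, bin 1 the lowest. The left panel plots the median log2 fold change over genes with its quartiles, which goes from 0.41 to -0.08, and the right panel the median deviation of each library from the mean of 8 libraries, where HIRA KO libraries 1 and 2 slope down and the other 6 slope up or stay near 0.

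The genes that differed had different levels in each direction. Genes higher at an unadjusted p under 0.05 had a median of 0.723 CPM per kb and lower ones of 4.05, against 1.27 over all genes with a length. Among DESeq2 calls on the 8 libraries, 270 lower genes with a length had a median of 12.4 CPM per kb and 41.5% of them lay in the highest bin, while 317 higher genes had a median of 1.90 and 12.0% in that bin. Low counts limit what either test can call in the lowest bins.

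The 10 genes of highest level moved in both directions. Alb, the albumin gene, measured 91626, 78906, 88380 and 85666 CPM in the controls and 133999, 119021, 95597 and 109671 CPM in HIRA KO. The groups did not overlap, but the log2 fold change of 0.41 ± 0.18 did not pass in edgeR (adjusted p = 0.321, edgeR). Alb passed in DESeq2 on the 8 libraries (adjusted p = 0.0279) and not in DESeq2 on 16 libraries (adjusted p = 0.0612). Trf, the transferrin gene, was at 36180 and 36602 CPM in HIRA KO libraries 1 and 2 and at 17044 and 17650 CPM in 3 and 4, against 14276 to 18427 CPM in the controls. Apoa1, the main protein of high-density lipoprotein, was at 2953 and 2373 CPM in HIRA KO libraries 1 and 2 and at 5182 and 5714 CPM in 3 and 4, against 5371 to 8304 CPM in the controls. Ttr had a log2 fold change of 0.52 ± 0.21, Apoa2 of -0.58 ± 0.32 and Apoe of -0.25 ± 0.19, and mt-Co1, mt-Cytb, mt-Nd1 and mt-Nd2 of 0.07 ± 0.16, -0.25 ± 0.17, 0.14 ± 0.16 and 0.19 ± 0.16. None of the 10 passed the test of edgeR.

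The 100 most counted genes took 44.0%, 43.2%, 44.4% and 43.6% of counts in the controls and 48.3%, 47.5%, 43.9% and 45.4% in HIRA KO. The difference of 2.44 percentage points had p = 0.0857 in an exact permutation test. For the 10 most counted genes the difference was 4.45 points (p = 0.0286, exact permutation test, the smallest possible). For the 1000 most counted genes it was 0.234 points (p = 0.543, exact permutation test). These p-values are not adjusted for the cut-offs tried. The distance between replicates was measured as well. The median distance of a gene from the mean of the other 3 libraries of its group was 0.206, 0.187, 0.193 and 0.177 (log2) in HIRA KO and 0.150, 0.147, 0.150 and 0.179 in the controls (p = 0.0571, exact permutation test, adjusted p = 0.143 over the 5 values). HIRA KO libraries 1 and 2 were close to each other, as were 3 and 4, with chi-square values per degree of freedom of 17.2 and 12.4 within these pairs and 71.9 to 93.7 between them. In the controls the value was 19.9 for libraries 1 and 2, 43.0 for 3 and 4, and 31.8 to 52.9 between these pairs.

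Lists of hepatocyte function held genes of both signs. Of 31 secreted plasma protein genes, 5 were higher and 7 lower at an unadjusted p under 0.05 (7.91% and 6.43% of all genes), and 0 were higher and 1 lower when HIRA KO libraries 1 and 2 were left out. Their list score was 11.11 to 11.12 in HIRA KO and 11.17 to 11.39 in the controls. Their summed level ran the other way, from 193965 to 264542 CPM in HIRA KO and from 183081 to 203511 CPM in the controls, with overlap. Serpina1a, an alpha-1 antitrypsin gene of a family with near-identical copies, measured 1259, 1239, 1413 and 1037 CPM in the controls and 756, 689, 856 and 925 CPM in HIRA KO, with separate groups (log2 fold change -0.62 ± 0.14, adjusted p = 0.106, edgeR), and Itih3, an inter-alpha-trypsin inhibitor heavy chain, measured 1137 ± 305 against 628 ± 172 CPM. C8b, of the complement membrane attack complex, measured 412, 564, 465 and 212 CPM in the controls and 149, 149, 212 and 195 CPM in HIRA KO. Of 15 acute phase genes, 0 were higher and 6 lower at an unadjusted p under 0.05, and 0 in either direction when HIRA KO libraries 1 and 2 were left out. The groups were separate for 1 of the 15, and control library 3 was far above all others for Saa1 (1396 CPM, against 38.3 to 156 CPM in the other 7) and for Saa2. Crp, with separate groups, had a log2 fold change of -0.54 ± 0.22.

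Of 20 liver transcription factor genes, 0 were called, and Nr5a2 and Rxra were lower at an unadjusted p under 0.05 (6.43% of all genes). Nr5a2, a nuclear receptor of bile acid and cholesterol metabolism, measured 82.1, 73.9, 67.1 and 58.3 CPM in the controls and 49.1, 52.6, 58.2 and 54.3 CPM in HIRA KO (log2 fold change -0.39 ± 0.10, adjusted p = 0.141, edgeR). Hnf4a, a central regulator of hepatocyte identity, measured 616, 646, 700 and 776 CPM in the controls and 468, 542, 674 and 766 CPM in HIRA KO (log2 fold change -0.16 ± 0.19, adjusted p = 0.751, edgeR). Its groups overlapped, and without HIRA KO libraries 1 and 2 its log2 fold change was 0.07. Slc10a1, the main bile acid uptake carrier of hepatocytes, measured 659 to 771 CPM in the controls, 44.6 and 110 CPM in HIRA KO libraries 1 and 2, and 573 and 673 CPM in libraries 3 and 4. Serpina6, the corticosteroid-binding globulin gene, had a log2 fold change of 0.04 ± 0.35, with a sign that changed between settings.

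Of 19 bile acid genes, 5 had a log2 fold change above 0 and 14 below it (10205 and 9854 of all 20059 genes). Their list score was 6.88 to 7.34 in HIRA KO and 7.35 to 7.67 in the controls. Abcc4, an efflux pump of the basolateral membrane, was higher (log2 fold change 1.14 ± 0.36, unadjusted p = 0.00704, edgeR). Slc27a5, the bile acid-CoA ligase, was lower (-0.60 ± 0.22, unadjusted p = 0.0126, edgeR), and both had separate groups. Among 25 urea cycle and amino acid genes, 0 were higher and 3 lower at an unadjusted p under 0.05 (7.91% and 6.43% of all genes). The lower ones were Cth, of transsulfuration, at 444 ± 60.7 against 275 ± 28.6 CPM, Hal, histidine ammonia lyase, at 521 ± 78.4 against 318 ± 45.1 CPM, and Agxt at 238 ± 36.2 against 163 ± 26.6 CPM. The groups were separate for all 3, and without HIRA KO libraries 1 and 2 the list again had 3 lower and 0 higher genes at that p. Fatty acid oxidation (25 genes) and glucose and glycogen metabolism (17 genes) had 0 genes at an unadjusted p under 0.05 in either direction. The summed level of the fatty acid oxidation list was 6090 and 6191 CPM in HIRA KO libraries 1 and 2, below every control (9861 to 14657 CPM), and 13495 and 13624 CPM in libraries 3 and 4. With libraries 1 and 2 left out, 2 of its genes were higher and 0 lower.

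Xenobiotic metabolism held higher genes with separate groups. Of 26 members, 5 were higher and 1 lower at an unadjusted p under 0.05 (7.91% and 6.43% of all genes), with a list median of 0.02. When HIRA KO libraries 1 and 2 were left out, 3 were higher and 0 lower (407 and 580 of all 20059 genes). Cyp3a11, a major drug-metabolising cytochrome P450, measured 4026, 3705, 3164 and 3077 CPM in the controls and 7035, 8678, 6847 and 5463 CPM in HIRA KO (log2 fold change 1.00 ± 0.21, adjusted p = 0.0866, edgeR). Gsta1, a glutathione transferase gene, measured 0.899, 0.539, 1.08 and 2.07 CPM in the controls and 15.0, 18.1, 5.30 and 6.78 CPM in HIRA KO. Cyp2b10, a classical target of the nuclear receptor CAR, measured 4.20, 1.19, 4.22 and 14.0 CPM in the controls and 36.6, 46.5, 27.5 and 31.6 CPM in HIRA KO (log2 fold change 2.60 ± 0.69, adjusted p = 0.156, edgeR). Por, the reductase that serves the cytochromes P450, had a log2 fold change of 0.89 ± 0.32. All 4 HIRA KO libraries lay above all controls for these 4 genes, and DESeq2 on the 8 libraries called each of them.

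Growth hormone-dependent genes that differ between the sexes in mouse liver were examined by their sex bias, in samples that all came from males. Only 12 of the 16 female-biased genes passed the count filter, which can have favoured genes higher in HIRA KO. All 12 had a log2 fold change above 0, 4 were higher at an unadjusted p under 0.05 (7.91% of all genes) and the median was 1.41. When HIRA KO libraries 1 and 2 were left out, 1 was higher and the median was 0.90. Of 16 male-biased genes, 5 had a log2 fold change above 0 and 11 below it, with a median of -0.38. At that p 0 were higher and 3 lower (7.91% and 6.43% of all genes), and 1 was lower with those libraries left out. Cyp17a1, a steroid hydroxylase gene, measured 4.50, 4.15, 4.51 and 25.7 CPM in the controls and 98.3, 85.5, 45.3 and 58.3 CPM in HIRA KO. Selenbp2, a male-biased selenium-binding protein gene, measured 409, 1153, 641 and 15.7 CPM in the controls and 59.0, 65.6, 37.2 and 63.8 CPM in HIRA KO (log2 fold change -3.30 ± 0.91, adjusted p = 0.164, edgeR). Control library 4 was at the level of HIRA KO for Selenbp2, and its female-biased list score (mean log2(CPM + 1)) of 3.12 lay within the HIRA KO range of 3.04 to 3.34, while the other 3 controls ran from 1.60 to 2.02.

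HIRA KO libraries 1 and 2 differed from all others in markers of other cells and of liver zonation. All 26 stellate cell and matrix genes had a log2 fold change above 0 and 16 were higher at an unadjusted p under 0.05, against 7.91% of all genes. Col3a1, a fibrillar collagen gene, was at 146 and 99.4 CPM in HIRA KO libraries 1 and 2 and at 23.9 and 24.7 CPM in 3 and 4, against 21.2 to 31.7 CPM in the controls. Of 19 cholangiocyte genes, 16 had a log2 fold change above 0 and 9 were higher at an unadjusted p under 0.05, against 7.91% of all genes. Krt19, a keratin of bile duct cells, was at 52.2 CPM in HIRA KO library 1, 4.38 CPM in library 2 and 1.50 and 1.44 CPM in libraries 3 and 4, against 1.19 to 2.00 CPM in the controls. Krt23, another keratin gene, was above all controls in all 4 HIRA KO libraries (24.7, 11.0, 2.85 and 4.33 CPM, against 0.647 to 1.83 CPM).

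Of 105 immunoglobulin variable genes that passed the count filter, 56 were higher and 0 lower at an unadjusted p under 0.05 (7.91% and 6.43% of all genes). All tested immunoglobulin gene segments together summed to 1679 and 250 CPM in HIRA KO libraries 1 and 2, 37.1 and 55.1 CPM in libraries 3 and 4, and 18.6 to 69.8 CPM in the controls. Segments can thus have passed the filter through HIRA KO library 1, which favours higher genes in these counts. Ctrb1, a pancreatic acinar gene, was at 239 counts in HIRA KO library 1 and at 0 in the other 7 libraries. Of 18 pericentral genes, 16 had a log2 fold change below 0, as did 9854 of all 20059 genes. At an unadjusted p under 0.05, 1 of the 18 was higher and 0 were lower (7.91% and 6.43% of all genes). The list score was 5.77 and 5.92 in HIRA KO libraries 1 and 2, 6.88 and 6.94 in 3 and 4, and 6.86 to 7.02 in the controls. Without HIRA KO libraries 1 and 2, the list medians were 0.05 for stellate cell and matrix genes, 0.12 for cholangiocyte genes and -0.01 for pericentral genes. What set these libraries apart was not tested, and the deletion approach cannot be told apart from the animal in them.

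**Figure D5:**
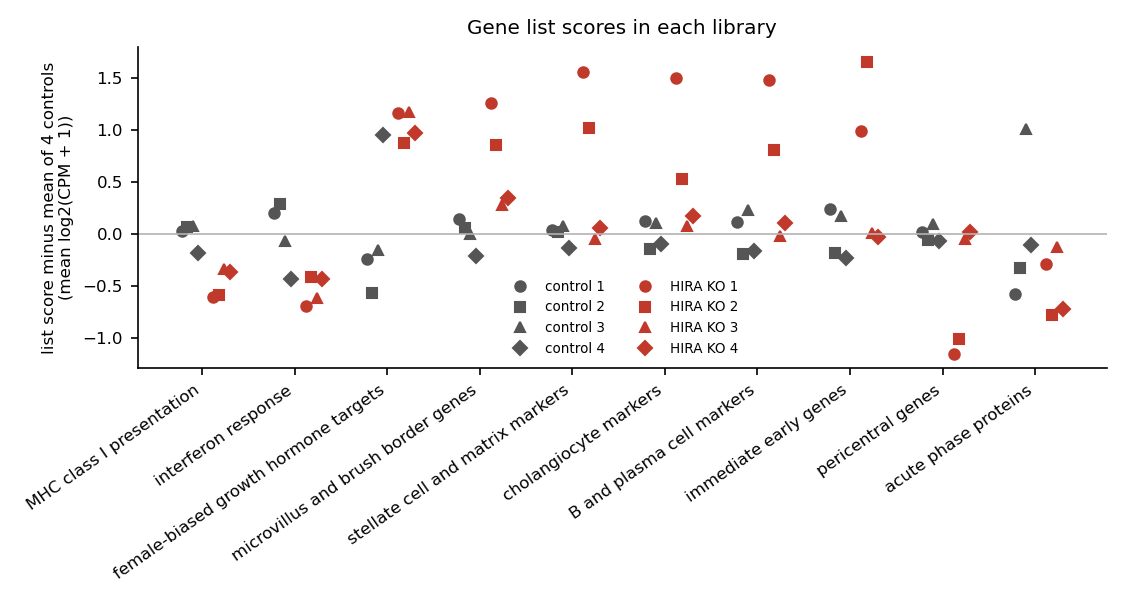
Scores (mean log2(CPM + 1) over the list) of 10 gene lists in each library, minus the mean of the 4 controls, with controls in grey, HIRA KO in red and 1 marker shape per library number. All 4 HIRA KO libraries lie below the controls for MHC class I, and for stellate cell, cholangiocyte, B and plasma cell, immediate early and pericentral genes HIRA KO libraries 1 and 2 lie apart from 3 and 4.

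Other lists were given by their counts at an unadjusted p under 0.05, which 7.91% of all genes reached as higher and 6.43% as lower. Immediate early genes had 3 of 17 higher, B and plasma cell markers 6 of 14, monocyte and neutrophil markers 4 of 16, p53 targets 3 of 20, integrated stress and endoplasmic reticulum chaperone genes 3 of 21, and fetal and progenitor liver genes 3 of 7, with 0 lower in each. Only 7 of the 13 fetal and progenitor genes passed the count filter. Their sum was 101 CPM in HIRA KO library 1 and 7.19 to 8.44 CPM in the controls, so the filter can have favoured higher genes. When HIRA KO libraries 1 and 2 were left out, the higher genes numbered 0 for immediate early genes, 1 for B and plasma cell markers, 1 for monocyte and neutrophil markers, 5 for p53 targets, 3 for stress and chaperone genes and 0 for fetal and progenitor genes. Over all 20059 genes, 407 were higher in that fit. The medians of the immediate early, B and plasma cell, and monocyte and neutrophil lists were then -0.17, -0.13 and -0.10, against 0.89, 1.08 and 0.72 in all libraries. Among the p53 targets, Eda2r, a death domain receptor gene, was at 5.71, 13.4, 12.0 and 12.9 CPM in HIRA KO and at 1.48 to 6.97 CPM in the controls. Asns, the asparagine synthetase gene and an ATF4 target, was at 6.97, 5.64, 1.56 and 0.878 CPM in HIRA KO, above the 0.0576 to 0.571 CPM of the controls (log2 fold change 3.25 ± 0.67, adjusted p = 0.0914, edgeR). Of 18 circadian clock genes 1 was higher, a share below that of all genes. It was Ciart, at 13.4, 6.77, 9.38 and 8.34 CPM against 0.970 to 4.40 CPM in the controls. The lists of endothelial markers, heat shock genes and mitotic genes had 0 genes at that p in either direction, as did a list of 14 histone genes that does not hold H3f3a or every replication-dependent gene. All 22 mitotic genes nevertheless had a log2 fold change above 0, with a median of 0.86 (-0.07 without HIRA KO libraries 1 and 2). The mitotic score was 1.73, 1.55, 0.865 and 0.892 in HIRA KO libraries 1 to 4 and 0.763 to 1.22 in the controls. Of 20 genes of silencing and imprinting, 1 was higher and 0 lower.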

How the data were processed

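RNA-seq gene counts of 16 liver libraries were used, 8 of them before regeneration. Per the study's methods the authors trimmed reads, aligned them to mm10 with STAR and made the deposited raw counts per gene with HOMER, while the submitters' processing notes name STAR, HTSeq and Cufflinks. The deposited FPKM values, scaled by the authors to gene length and depth, served only as an alternative measure of level, since 4613 to 5445 genes per library had 0 counts and an FPKM above 0. Total counts were 15103059 to 20356781, which sets the counting error of low genes. Genes with at least 10 counts over the 8 libraries were fitted in edgeR 4.0.16 (R 4.3.3, TMM, robust quasi-likelihood, 4 group means over 16 libraries), with Benjamini-Hochberg adjustment. DESeq2 1.42.0, limma 3.58.1 and other filters, scalings and left-out libraries were alternatives. Standard errors are those of the fitted log2 fold change. The 5 values per library were compared by exact two-sided permutation tests (scipy 1.17.1). Named genes were the called genes, the 12 of smallest p in each direction among protein-coding genes with a mean of at least 1 CPM and separate groups, 10 of highest level, HIRA partners, Hnf4a, Alb, Slc10a1 and Serpina6, and up to 4 of smallest p per list. C8b, Cps1, Col3a1, Usp18, Isg15, the MHC class I genes beyond Nlrc5 and H2-Q, and neighbours on chromosome 3 and the mitochondrial genome were chosen after their values were seen. The members and the 41 gene lists were chosen with earlier results of these data known. Promoters and the motif count came from RefSeq (GRCm38.p6), by symbol. In the list of interferon response genes, 1 gene is counted but not reported here by name. The edgeR fit was tested on simulated counts drawn independently for each library. That simulation held no split among the HIRA KO libraries, so it does not cover the setting seen here. No per-library column of these 8 libraries was left unused.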

Additional observations from a re-analysis of the deposited data

Results flagged for a closer look

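In 8 of 160 groups of 4 libraries, 1 library lay far from the other 3 by Dixon's gap over range, a rate that chance also gives (about 1 in 20). Control library 4 was lowest for Mtmr11 (0.864 CPM, against 2.48 to 2.63, ratio 0.9163), highest for Polr3gl (11.0 CPM, against 8.84 to 9.00, ratio 0.9277) and highest for Slc10a2 (55.1 CPM, against 35.1 to 38.0, ratio 0.8553). For Mtmr11 and Polr3gl that library lay further from HIRA KO than the other controls did, and for Slc10a2 it lay closer. It was also highest for the distance to the other replicates (0.179, against 0.147 to 0.150 on the log2 scale, ratio 0.8842) and lowest for the MHC class II score (3.39, against 4.31 to 4.39, ratio 0.9259). HIRA KO library 4 was highest for Utp14a (11.2 CPM, against 9.79 to 9.85, ratio 0.9563). HIRA KO library 1 was highest for the pancreatic acinar score (2.68, against 1.23 to 1.35, ratio 0.9197), and control library 3 for the mitotic score (1.22, against 0.763 to 0.828, ratio 0.8598).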

How the results depend on the processing

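The count of called genes, 9, became 384 with DESeq2 on 16 libraries, 603 with DESeq2 on 8 libraries, 25 with a filter of at least 1 count and 0 without HIRA KO libraries 1 and 2, and ran from 1 to 26 when 1 library was left out (1 without control library 1, control library 3 or HIRA KO library 2, 13 without control library 2, 4 without HIRA KO library 1, 18 and 26 without HIRA KO libraries 3 and 4). The other 6 settings gave 8 to 12, and edgeR on the 8 libraries alone kept 4 of the 9 (Cdhr2, Gm17430, Kctd17 and Slc10a2). Mtmr11 and Polr3gl were not called in that fit (adjusted p = 0.0702 and 0.0717, edgeR). Hira passed with DESeq2, at -0.69 on 16 and on 8 libraries. The difference in replicate spread was 0.0381 with no minimum CPM (p = 0.0286, exact permutation test) and reversed to -0.0245 without HIRA KO libraries 1 and 2. The share of counts differed by 4.45 points for the 10 most counted genes and by 0.234 points for the 1000 most counted. Without HIRA KO libraries 1 and 2, Hnf4a turned to 0.074, H3f3b to -0.065 and Serpina6 to -0.15. Serpina6 was -0.017 with limma-voom and ran from -0.11 to 0.18 with 1 library left out, and Ubn1 from -0.049 to 0.057. The cause was not tested. No paired analysis was possible because the count columns carry a running number and not the mouse, replicate label or deletion approach, so the planned fits with the approach as covariate or with a replicate block were not run.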
